A study of Mus musculus with 9 samples.

Results

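NF-κB is a family of transcription factors built as dimers of 5 Rel proteins, and the RNA of the 5 subunit genes and of 5 feedback inhibitor genes was followed in murine Smarcb1-negative T cells. The subunits were Nfkb1 (encoding p105 and its product p50), Nfkb2 (p100 and its product p52), Rel (c-Rel), Rela (p65) and Relb. The inhibitors were Nfkbia (IκBα) and Nfkbie (IκBε), which hold NF-κB dimers in the cytoplasm, Nfkbiz (IκBζ) and Bcl3, which are nuclear IκB proteins that bind p50 or p52 dimers, and Tnfaip3 (A20), a ubiquitin-editing enzyme that shuts down signaling upstream of the IκB kinase. The genes were listed by name from this family, and all 10 were found among the 35288 listed genes and among the 13697 genes with enough reads to be tested. In resting cells IκB proteins keep NF-κB inactive. Antigen receptor, TNF receptor or Toll-like receptor signaling activates the IκB kinase, IκB is degraded, and RELA- and c-REL-containing dimers enter the nucleus. These induce inhibitor genes as negative feedback, while a slower, non-canonical route through NIK processes p100 and releases RELB-p52 dimers.

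RNA was sequenced from T15, a cell line derived from a Smarcb1-deficient mouse model of peripheral T-cell lymphoma (PTCL), in 3 groups of 3 libraries each. The first group was the control, T15 cells without Smarcb1. The second was T15 cells given SAHA (vorinostat, a pan-HDAC inhibitor) at 1 µM for 72 h, a concentration at which the study describes strong apoptosis of these cells. The third, Smarcb1-RE, was T15 cells with lentiviral, doxycycline-inducible Smarcb1 cDNA in the pInducer20 vector, selected with G418 and given Dox at 0.5 µg/µl for 72 h. All groups carry the Smarcb1 deficiency of the line. The study describes the controls as untreated, while the labels mention vehicle and a control plasmid without tying either to a library, so transduction, selection and Dox cannot be told apart from Smarcb1 itself. The study established several stable clones, and the labels do not say which were sequenced. The study calls the 3 libraries of each group biological replicates, without saying whether they were separate cultures, and p-values measure the spread between these libraries of 1 cell line.

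Library totals ranged from 20900477 to 24941494 counts, so that 3 counts corresponded to between 0.120 and 0.144 CPM (the usual counts-per-depth unit, here on raw totals and below on totals scaled by TMM composition factors). Smarcb1 had 2, 5 and 8 counts in the controls, 7, 13 and 3 with SAHA, and 151, 147 and 142 in the Smarcb1-RE libraries, which checked the labels. No 2 libraries of a group agreed within sampling noise. Control replicate 1 stood furthest from its group, with a chi-square per gene of 13.4 and 15.0 against the other two controls, against 2.12 to 4.69 in all other pairs. Of 13 T-cell markers, 10 had more than 3 counts in some library, with summed levels of 3507 to 3623 CPM in controls, 3932 to 3973 with SAHA and 3565 to 3637 in Smarcb1-RE. Cd2, Cd5 and Cd4 were at or under 3 counts everywhere. The summed level of 5 B-cell markers was 0.935 to 1.14 CPM in controls, 1.24 to 1.86 with SAHA and 7.25 to 7.96 in Smarcb1-RE, with Cd79b at or under 3 counts everywhere. The 7 myeloid markers summed to at most 0.808 CPM and the 5 stromal markers to at most 1.21 CPM in any library. The part of these markers in the results that follow was not tested. In bulk RNA, fewer cells of a type and less RNA per cell cannot be told apart.

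RefSeq promoter sequences (GRCm38.p6) matched 7 of the 10 genes, and none are shown for Nfkb1, Relb and Nfkbiz. They are shown because NF-κB binds a 10-base κB element, and feedback inhibitor genes are known for carrying such elements close to their start sites. A match to the κB consensus on either strand lay within the 300-base window around the start site of 6 of these 7 genes, Rela being the exception, whereas 4.51% of all 32851 windows and 5.14% of 27025 genes held one. A looser pattern on either strand (GGG, any 5 bases, then CC), of which the consensus is a special case, was in all 7 and in 50.8% of all windows. The consensus spelling was kept after other spellings had been looked at, and feedback inhibitor genes are known for such elements. The contrast with all windows is therefore a description and no test. A match is a description of letters and not of binding. Each sequence is given 5′ to 3′ on the gene's strand. It holds the 150 bases before the RefSeq start site, or, for Bcl3, 30 bases around it, with the consensus matches in capitals.
Nfkbia, chr12:55492648-55492797, minus strand: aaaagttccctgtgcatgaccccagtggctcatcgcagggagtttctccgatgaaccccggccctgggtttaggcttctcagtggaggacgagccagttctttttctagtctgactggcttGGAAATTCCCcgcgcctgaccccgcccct
Nfkbie, chr17:45555550-45555699, plus strand: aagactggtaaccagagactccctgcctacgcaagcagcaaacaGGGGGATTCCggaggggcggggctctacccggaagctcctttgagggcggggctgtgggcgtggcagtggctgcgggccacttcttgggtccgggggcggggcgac
Tnfaip3, chr10:19015411-19015560, minus strand: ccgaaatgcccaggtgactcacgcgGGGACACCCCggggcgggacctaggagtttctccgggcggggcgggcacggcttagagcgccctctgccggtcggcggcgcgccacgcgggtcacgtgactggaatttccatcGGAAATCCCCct
Bcl3, chr7:19822734-19822763, minus strand: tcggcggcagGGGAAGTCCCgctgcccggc
Rel, chr11:23770970-23771119, minus strand: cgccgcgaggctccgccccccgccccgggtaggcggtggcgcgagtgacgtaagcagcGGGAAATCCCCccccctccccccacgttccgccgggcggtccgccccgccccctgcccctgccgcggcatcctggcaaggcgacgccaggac
Nfkb2, chr19:46304587-46304736, plus strand: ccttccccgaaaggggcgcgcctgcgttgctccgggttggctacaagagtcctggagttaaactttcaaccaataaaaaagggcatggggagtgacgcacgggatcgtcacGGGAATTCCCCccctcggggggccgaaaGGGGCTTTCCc
Rela, chr19:5637391-5637540, plus strand: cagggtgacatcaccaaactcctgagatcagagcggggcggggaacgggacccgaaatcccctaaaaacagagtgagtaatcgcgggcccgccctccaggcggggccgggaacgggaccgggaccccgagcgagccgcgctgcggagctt

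The Nfkbia match lay 29 to 20 bases before the start site, and that of Nfkbie 106 to 97 bases before it. Tnfaip3 had matches at 125 to 116 and at 12 to 3 bases before the first of its 2 annotated starts and none at the second, and the Rel match spanned 92 to 82 bases before the start. Nfkb2 had 3 annotated starts, of which the first is printed, with matches at 39 to 29 and 11 to 2 bases before it. The Bcl3 match began 3 bases after the start.

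**Figure D1:**
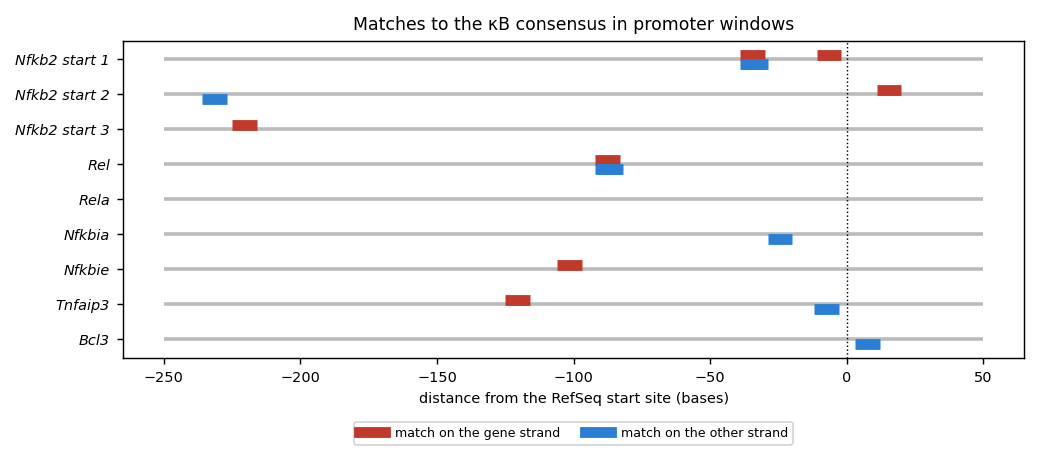
Each grey line is the 300-base promoter window of a gene (one line per annotated start with a match, and Rela without one; the second start of Tnfaip3, without a match, is not drawn), and the x axis gives the distance from the RefSeq start site in bases. Coloured blocks mark matches to the κB consensus on the gene's strand (red) or the other strand (blue); the window of Rela holds none.

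With SAHA, all 5 feedback inhibitors rose, while the subunits went both ways, each by less than any inhibitor. The smallest inhibitor rise, of Nfkbia (log2 fold change 0.31), was close to the largest subunit rise, of Nfkb2 (0.28). Nfkbie and Tnfaip3 rose most, by 1.99-fold and 1.89-fold. Of the 5 subunits, Nfkb2 and Rel rose, Rela fell, and Nfkb1 and Relb did not pass the test. In total 7 of 10 genes were called higher and 1 lower at an adjusted p under 0.05, in a comparison where 32.6% of all tested genes were called higher, 34.3% lower and 66.9% either way. The median log2 fold change was 0.60 for the inhibitors and 0.09 for the subunits, against 0.003 for all tested genes. Without regard to sign, these medians were 0.60, 0.17 and 0.37, and that of the 10 genes together was 0.30. None of the 10 genes passed both the p threshold and a 2-fold change, which 12.2% of tested genes did.

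After Smarcb1 re-expression, the 10 genes went both ways, as tested genes in general did. Relb rose by 1.83-fold and the other 4 subunits did not pass the test, while Nfkbie and Tnfaip3 rose and Nfkbiz, Bcl3 and Nfkbia fell. Thus 3 of 10 genes were called higher and 3 lower (6 and 2 with library totals), where 39.2% of tested genes were higher, 38.6% lower and 77.8% either way. The median log2 fold change was -0.24 for the inhibitors and 0.02 for the subunits, against 0.01 for all tested genes. Without regard to sign, the median was 0.23 for the 10 genes and 0.53 for all tested genes. With TMM scaling none of the 10 passed the 2-fold rule, met by 23.6% of tested genes. Relb, at 1.83-fold, came nearest, and the rule was not applied to values scaled by library totals. TMM factors of the Smarcb1-RE libraries were 1.07 to 1.08, against 0.953 to 0.975 in the others. Scaling by library totals alone raised the median of all tested genes to 0.17 against control (6474 genes higher, 4143 lower, against 5371 and 5282 with TMM) and to 0.18 against SAHA (6440 higher, 3927 lower, against 5171 and 5042), so small changes in Smarcb1-RE are read relative to TMM scaling. With library totals, 4 of the 5 subunits were called higher against control (median 0.18), and the inhibitor median was -0.08.

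Set directly against SAHA, Smarcb1-RE cells had lower RNA of all 5 inhibitors, led by Nfkbiz at 2.42-fold lower. Relb and Rela were higher, Nfkb2 and Rel lower, and Nfkb1 did not pass the test. In total 2 genes were higher and 7 lower, where 37.8% of tested genes were higher, 36.8% lower and 74.6% either way. Nfkbiz was the 1 gene of the 10 that passed the 2-fold rule, met by 19.8% of tested genes. The 3 comparisons share libraries, and their values are given side by side and not as independent evidence. Tests were edgeR quasi-likelihood tests with Benjamini-Hochberg adjustment over the 13697 genes.

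**Figure D2:**
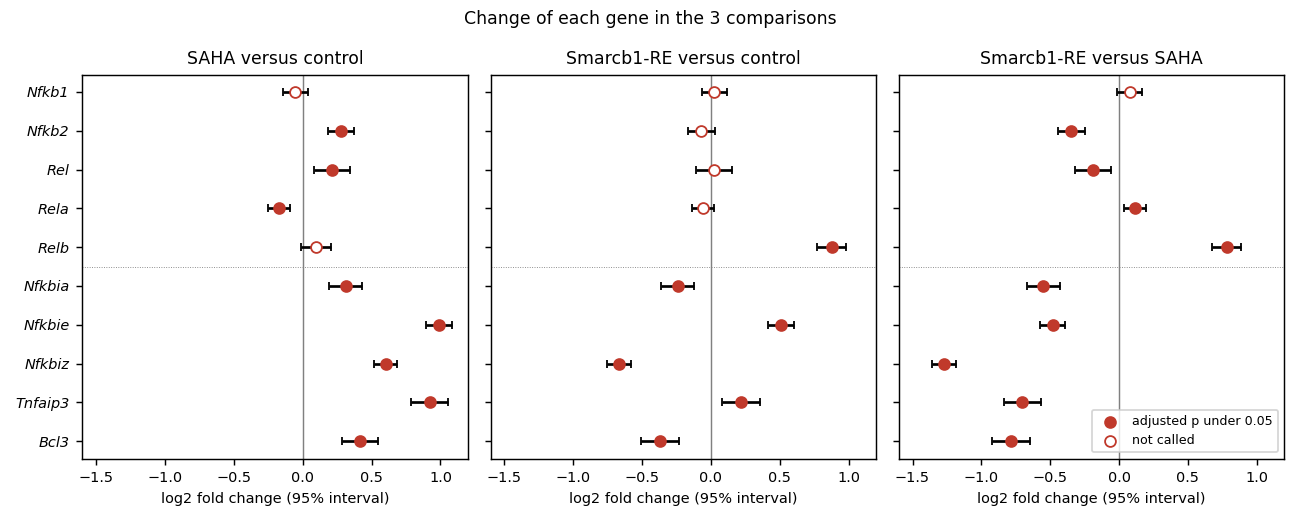
Points are the log2 fold changes (x axis) of the 5 subunits (above the dotted line) and the 5 inhibitors (below it) in the 3 comparisons, with 95% intervals as bars; filled points passed an adjusted p under 0.05. All 5 inhibitors lie to the right with SAHA and to the left in Smarcb1-RE versus SAHA, and Relb is the subunit with the largest shift, 0.88 in Smarcb1-RE versus control.

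Among the subunits, Relb, the transactivating partner of p52 in the non-canonical route, had the widest range. Relb (chr7:19606217-19629438, minus strand) measured 31.2, 29.1 and 30.4 CPM in the controls, 33.0, 30.5 and 33.3 with SAHA, and 54.6, 55.7 and 56.2 in Smarcb1-RE. The control and SAHA libraries overlapped and every Smarcb1-RE library was above both. The log2 fold change was 0.88 ± 0.05 (SE, n = 3 per group, edgeR adjusted p = 3.94e-09) against control and 0.78 ± 0.05 against SAHA (adjusted p = 1.21e-08). SAHA against control gave 0.09 (95% interval -0.01 to 0.20, adjusted p = 0.114), which became a call of 0.13 without SAHA replicate 2 (adjusted p = 0.0468) or among genes with at least 10 counts in every library (0.13, adjusted p = 0.0408).

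Nfkb2, whose p100 product is both the precursor of p52 and an inhibitor of NF-κB dimers, rose with SAHA. Nfkb2 (chr19:46304320-46312385, plus strand, overlapping Psd and an lncRNA on the other strand, a limit where counting ignored strand) measured 170.8, 175.2 and 171.9 CPM in controls, 220.4, 205.1 and 202.2 with SAHA and 157.3, 164.9 and 170.8 in Smarcb1-RE. SAHA libraries stood above all others, while the highest Smarcb1-RE library met the lowest control. The log2 fold change with SAHA was 0.28 ± 0.04 (SE, n = 3 per group, edgeR adjusted p = 1.25e-04). Smarcb1-RE against SAHA gave -0.35 ± 0.04 (adjusted p = 1.28e-05). Smarcb1-RE against control gave -0.07 (95% interval -0.17 to 0.03, adjusted p = 0.163), and 0.09 with library totals.

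The canonical subunits moved little. Rela (chr19:5637483-5648130, plus strand), the main transactivating subunit, measured 115.3, 122.1 and 118.5 CPM in controls, 104.2, 105.7 and 105.8 with SAHA, and 115.6, 113.6 and 113.3 in Smarcb1-RE. SAHA libraries were all below the others, and Rela fell by 0.17 ± 0.04 on the log2 scale with SAHA (SE, n = 3 per group, edgeR adjusted p = 0.00111). Smarcb1-RE exceeded SAHA by 0.12 (adjusted p = 0.0116), a call lost without SAHA replicate 1, SAHA replicate 2 or Smarcb1-RE replicate 1 (adjusted p = 0.0557, 0.0570 and 0.0702). Smarcb1-RE against control gave -0.06 (95% interval -0.14 to 0.02, adjusted p = 0.184), which turned to 0.10 with library totals (adjusted p = 0.0259) and was called at -0.08 without control replicate 1 (adjusted p = 0.0340).

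Rel (chr11:23736847-23770970, minus strand), the c-Rel subunit of activated lymphocytes, measured 82.3, 95.1 and 98.8 CPM in controls, 110.7, 105.7 and 103.1 with SAHA and 91.7, 93.8 and 94.8 in Smarcb1-RE. Control replicate 1 was the lowest library and the SAHA libraries were the highest. Rel rose with SAHA by 0.21 ± 0.06 on the log2 scale (SE, n = 3 per group, edgeR adjusted p = 0.00767). Smarcb1-RE against SAHA gave -0.19 (adjusted p = 0.0121), a call lost with library totals (-0.03, adjusted p = 0.680), and against control 0.02 (95% interval -0.11 to 0.15, adjusted p = 0.763), called at 0.18 with library totals (adjusted p = 0.0237). Nfkb1 (chr3:135584655-135691547, minus strand), source of the p50 that pairs with RELA, measured 887.4, 957.1 and 934.9 CPM in controls, 924.1, 866.4 and 888.5 with SAHA and 928.8, 950.1 and 947.7 in Smarcb1-RE. Its log2 fold changes were -0.05 with SAHA (95% interval -0.14 to 0.04, adjusted p = 0.273) and 0.02 with Smarcb1 (95% interval -0.07 to 0.11, adjusted p = 0.603). The SAHA value was called without control replicate 1 (-0.09, adjusted p = 0.0332). Smarcb1-RE against SAHA gave 0.08 (adjusted p = 0.107), called without control replicate 1 (0.07, adjusted p = 0.0350) and in a fit to these 2 groups alone (0.08, adjusted p = 0.0267). With library totals, Nfkb1 was called in Smarcb1-RE at 0.18 against control (adjusted p = 0.00170) and 0.24 against SAHA (adjusted p = 2.55e-04).

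Nfkbiz, which encodes the inducible nuclear protein IκBζ, had the widest range of the inhibitors. Nfkbiz (chr16:55811375-55838899, minus strand) measured 209.4, 218.5 and 221.2 CPM in controls, 336.6, 321.5 and 327.5 with SAHA, and 140.0, 133.3 and 134.5 in Smarcb1-RE. The 3 groups did not overlap, with SAHA highest and Smarcb1-RE lowest. Nfkbiz rose with SAHA by 0.60 ± 0.04 on the log2 scale (SE, n = 3 per group, edgeR adjusted p = 4.71e-08) and fell by 0.67 ± 0.04 with Smarcb1 (adjusted p = 8.00e-09). Smarcb1-RE against SAHA gave -1.27 ± 0.04 (adjusted p = 3.72e-11).

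Bcl3, a nuclear IκB protein that can act with p50 or p52 as a coactivator, followed the same order. Bcl3 (chr7:19808462-19822770, minus strand, with 2 antisense genes on the other strand whose reads cannot be told apart where counting ignored strand) measured 35.3, 39.9 and 36.3 CPM in controls, 51.6, 46.9 and 50.1 with SAHA and 28.9, 30.4 and 26.9 in Smarcb1-RE. The groups did not overlap. The log2 fold changes were 0.41 ± 0.06 with SAHA (SE, n = 3 per group, edgeR adjusted p = 5.52e-05), -0.37 ± 0.06 with Smarcb1 (adjusted p = 1.44e-04) and -0.79 ± 0.06 between Smarcb1-RE and SAHA (adjusted p = 1.33e-07). Nfkbia (chr12:55489410-55492647, minus strand), the classic IκBα, measured 273.1, 250.6 and 231.3 CPM in controls, 324.1, 305.1 and 308.6 with SAHA and 211.2, 209.1 and 219.1 in Smarcb1-RE. The groups again did not overlap, with a wider spread among the controls. Nfkbia rose with SAHA by 0.31 ± 0.05 (adjusted p = 2.47e-04) and fell with Smarcb1 by 0.24 ± 0.06 (adjusted p = 0.00152), a call lost with library totals (-0.08, adjusted p = 0.169). Smarcb1-RE against SAHA gave -0.55 (adjusted p = 1.18e-06).

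Nfkbie and Tnfaip3 were higher than control in both treated groups and highest with SAHA. Nfkbie (chr17:45555703-45563169, plus strand), encoding IκBε, measured 25.2, 24.6 and 24.4 CPM in controls, 48.1, 49.5 and 50.0 with SAHA and 35.4, 35.3 and 34.9 in Smarcb1-RE. The groups did not overlap, and the spread within each was narrow. The log2 fold changes were 0.99 ± 0.04 with SAHA (SE, n = 3 per group, edgeR adjusted p = 2.62e-09), 0.51 ± 0.04 with Smarcb1 (adjusted p = 2.49e-07) and -0.48 ± 0.04 between Smarcb1-RE and SAHA (adjusted p = 2.70e-07). Tnfaip3 (chr10:19000910-19015657, minus strand), encoding A20, measured 15.2, 15.0 and 14.9 CPM in controls, 28.8, 28.7 and 27.9 with SAHA and 18.3, 15.9 and 18.2 in Smarcb1-RE. Smarcb1-RE replicate 2 lay closest to the controls. Tnfaip3 rose with SAHA by 0.92 ± 0.06 on the log2 scale (adjusted p = 6.66e-08) and with Smarcb1 by 0.22 ± 0.06 (adjusted p = 0.00798). The latter call was lost without Smarcb1-RE replicate 1 (0.17, adjusted p = 0.0507). Smarcb1-RE against SAHA gave -0.70 (adjusted p = 3.43e-07). Counts of the 10 genes ranged from 355 to 22743 per library, so no value rested on few reads, and the within-group coefficient of variation ranged from 0.712% to 9.41%. With 3 against 3 libraries, an exact two-sided permutation test of a single gene cannot go below p = 0.1.

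**Figure D3:**
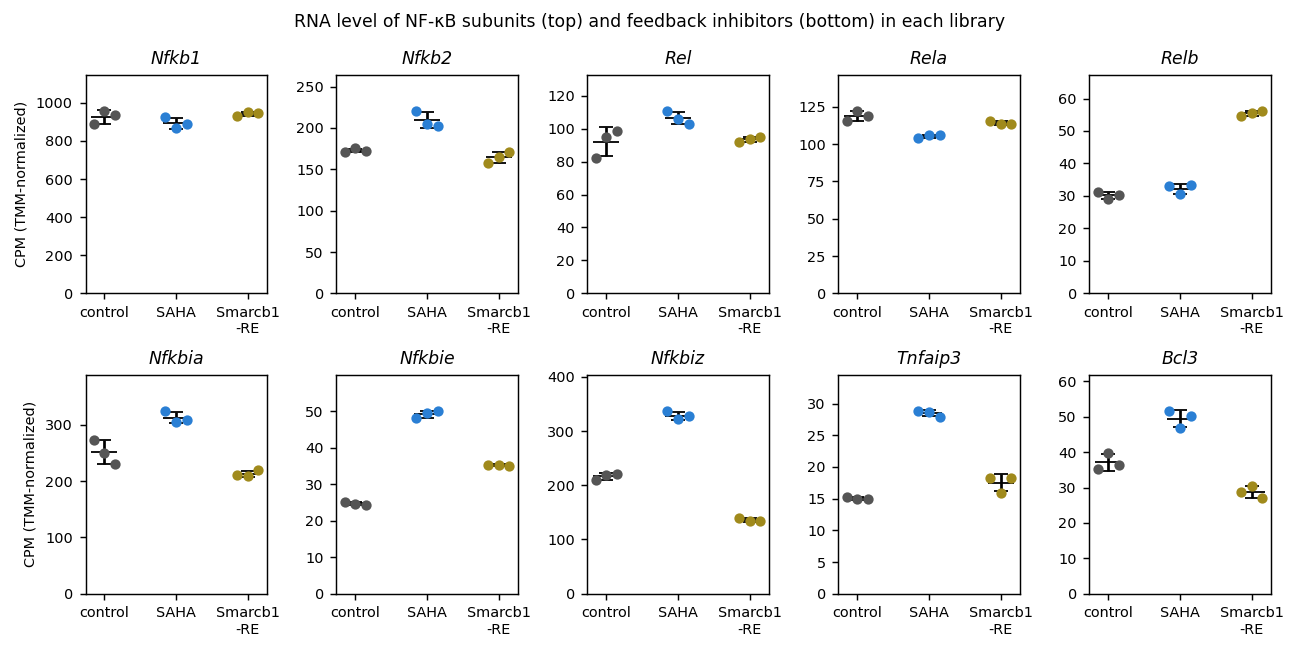
Points are TMM-normalized CPM (y axis, from 0) of each library in the 3 groups, for the 5 subunits (top row) and 5 inhibitors (bottom row), and black bars are the mean ± SD of 3 libraries. SAHA libraries are the highest in all 5 inhibitor panels, and Smarcb1-RE libraries are the highest in the Relb panel.

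The order of levels among the genes was taken per kilobase, over the union of annotated exons (GENCODE M21) or the longest transcript. In controls, Nfkbia was the highest over the exon union, at 156 ± 13.0 CPM per kb (SD, n = 3), followed by Nfkb1 (76.8), Nfkbiz (43.1), Rela (38.6), Nfkb2 (37.7), Bcl3 (15.0), Rel (12.3), Nfkbie (8.12), Relb (7.78) and Tnfaip3 (2.08). The neighbours Rela and Nfkb2, and Nfkbie and Relb, overlapped in their libraries and could not be ranked. On the longest transcript Nfkb1 came first, with 223 CPM per kb against 159 for Nfkbia, since its exon union (12061 bp) is much longer than its longest transcript (4149 bp). In Smarcb1-RE, Relb ranked 6 of 10 over the exon union, at 14.3 CPM per kb, above Rel and Bcl3, which had ranked above it in controls on both length scales. In that group and over the exon union, Bcl3 overlapped with both Rel and Nfkbie.

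As a share of the RNA of the 5 subunits per kilobase of exon union, Relb made up 4.50% ± 0.295 (SD, n = 3) in controls, 4.71% ± 0.185 with SAHA and 8.02% ± 0.0101 in Smarcb1-RE. On the longest transcript these shares were 2.77%, 2.97% and 4.96%, in the same order. Nfkb2 made up 21.8% in controls, 25.9% with SAHA and 20.1% in Smarcb1-RE, and Rela 22.3%, 19.4% and 20.9%. The summed inhibitors amounted to 1.30 ± 0.0995 times the summed subunits in controls (SD, n = 3), 1.70 ± 0.00595 times with SAHA and 1.04 ± 0.0169 times in Smarcb1-RE. On the longest transcript the ratios were 0.729, 0.979 and 0.581. The summed subunits per kb of exon union were 173, 177 and 178 CPM in the 3 groups, while the summed inhibitors were 225, 300 and 185. Most of the inhibitor sum was Nfkbia, at 156, 194 and 132 CPM per kb. The sum leaves out the other IκB genes Nfkbib and Nfkbid. It includes Bcl3, which can act as a coactivator, while Nfkb2, whose p100 product also inhibits, counts as a subunit. The ratio therefore compares the RNA of listed genes and does not measure inhibition of NF-κB. With library totals the subunits summed to 167, 170 and 191 and the inhibitors to 216, 289 and 199. The ratios cannot change with this scaling, which acts alike on both sums of a library. These shares are descriptions of RNA and carry no test.

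**Figure D4:**
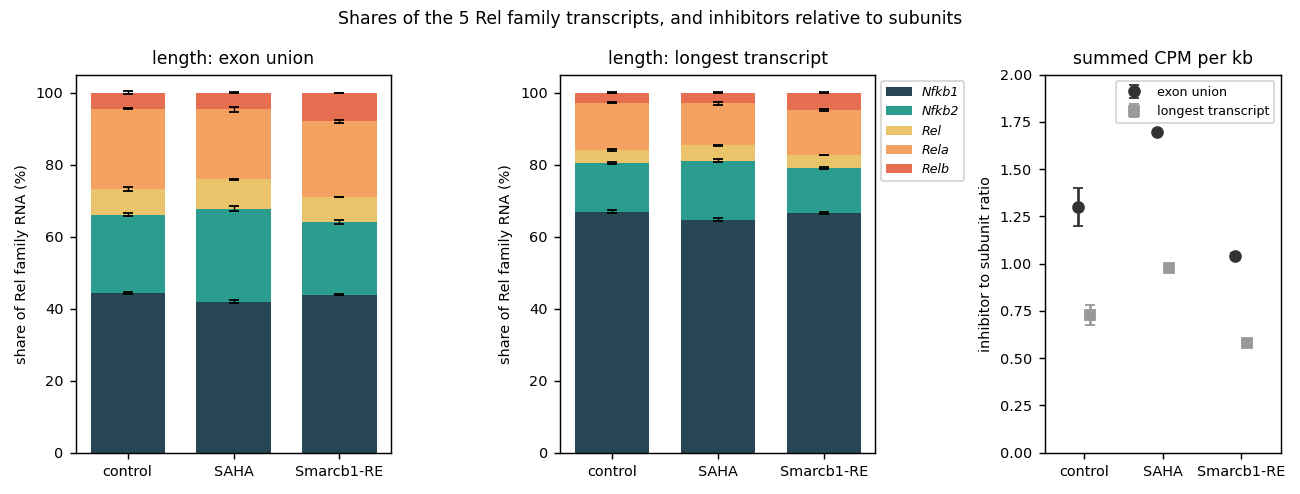
Stacked bars give the mean share (%) of the 5 subunits in their summed RNA per kilobase in each group, on 2 length scales, with SD bars; the right panel gives the ratio of summed inhibitors to summed subunits, mean ± SD of 3 libraries. The Relb share is largest in Smarcb1-RE (8.02%) and the ratio is largest with SAHA (1.70).

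Among the 11318 tested genes that averaged 1 or more on the log2 CPM scale, those whose pattern over the 9 libraries was most like that of Relb were Zbtb20, Egflam and Tsc22d3 (Pearson r = 0.997 each). Etv1 and Apold1 were among those most like Nfkbiz (both r = 0.998). The 9 points fall into 3 groups and share the libraries of the compared genes, so these values describe likeness only.

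Upstream, the other IκB genes fell with Smarcb1. Nfkbib (IκBβ) went from 109 ± 6.46 CPM (SD, n = 3) in controls and 118 ± 1.33 with SAHA to 57.8 ± 3.07 in Smarcb1-RE, a log2 fold change of -0.92 against control (edgeR adjusted p = 5.11e-09). Nfkbid (IκBNS) went from 37.3 ± 1.19 and 44.2 ± 4.28 to 24.1 ± 0.964 CPM, -0.63 against control (adjusted p = 2.33e-06), after a rise of 0.24 with SAHA (adjusted p = 0.00525). Over all tested genes, 66.9% were called with SAHA and 77.8% with Smarcb1, against which the counts of these lists are read. Of 10 IKK and activating kinase genes, 3 rose and 2 fell with SAHA, and 2 rose and 4 fell with Smarcb1 (6 rose and 2 fell with library totals, where Tbk1 and Map3k7 turned direction). The median log2 fold changes of this list were -0.01 and 0.07. Map3k14, encoding the NIK kinase of the non-canonical route, rose with SAHA by 0.49 (adjusted p = 1.03e-05) and had 0.11 with Smarcb1 (adjusted p = 0.123). Ikbke, encoding IKKε, rose with Smarcb1 by 0.74 (adjusted p = 1.45e-07). Chuk (IKKα) fell in both comparisons, by 0.25 and 0.41 (adjusted p = 9.63e-04 and 1.12e-05).

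Among 12 adaptor and ubiquitin ligase genes, 6 rose and 2 fell with SAHA (median log2 fold change 0.21), and 7 rose and 4 fell with Smarcb1 (median 0.14, or 8 and 2 called with library totals). Rnf31 (HOIP, the catalytic subunit of LUBAC) rose most with SAHA, by 0.91 (edgeR adjusted p = 2.97e-08), and Rbck1 (HOIL-1) fell most, by 0.69 (adjusted p = 1.10e-08). With Smarcb1, Traf5 and Birc2 (cIAP1) rose by 1.15 and 1.08 (adjusted p = 9.02e-06 and 1.65e-09), and Tradd, the adaptor of TNF receptor 1, fell by 1.13 (adjusted p = 2.19e-09). Among genes of antigen receptor signaling, Malt1, the paracaspase, rose from 80.2 ± 2.58 CPM (SD, n = 3) in controls to 196 ± 5.07 with SAHA and 121 ± 2.65 in Smarcb1-RE (log2 fold changes of 1.29 and 0.60, adjusted p = 4.04e-10 and 3.06e-08). Prkcq, a protein kinase C of T cells, rose by 1.00 with SAHA (adjusted p = 0.0114) and 2.59 with Smarcb1 (adjusted p = 2.40e-06), from a control level of 0.671 CPM. Bcl10, the binding partner of MALT1, passed neither test against control (0.10 and -0.07, adjusted p = 0.118 and 0.284).

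Of 12 other negative regulators, 6 rose and 3 fell with SAHA (median log2 fold change 0.12), and 5 rose and 5 fell with Smarcb1 (median 0.05, or 7 and 4 called with library totals). Tax1bp1, an A20 partner, rose with SAHA by 0.54 (edgeR adjusted p = 7.96e-08), and Itch, a ligase of the A20 complex, fell by 0.79 (adjusted p = 9.57e-08). With Smarcb1, Tnip3 and the deubiquitinase Cyld rose by 0.77 and 0.56 (adjusted p = 4.56e-08 and 6.90e-08), while Pdlim2 and Otulin fell by 0.70 and 0.56 (adjusted p = 3.49e-08 and 7.97e-07). Of 15 receptor and receptor adaptor genes, 10 passed the low-count filter. Tlr4, Il18r1 and Cd40 passed it through the Smarcb1-RE group alone, so the counts describe the listed genes only. Cd40 had 10 to 14 counts in controls, 5 to 9 with SAHA and 22 to 24 in Smarcb1-RE. Of the 10, 3 rose and 2 fell with SAHA (median 0.01) and 6 rose and 2 fell with Smarcb1 (median 0.67). Tnfrsf1b (TNF receptor 2) rose by 0.79 and 0.83 (adjusted p = 3.79e-08 and 9.35e-09), whereas Tnfrsf1a (TNF receptor 1) had 0 counts in every library, which allows up to 3 counts in each. Myd88, the Toll-like receptor adaptor, fell in both comparisons, by 0.27 and 0.90 (adjusted p = 4.45e-04 and 5.77e-09), and Tnfrsf13c (BAFF receptor) fell by 1.24 with Smarcb1 (adjusted p = 9.24e-11). The Toll-like receptor gene Tlr2 fell with SAHA by 0.96 (adjusted p = 6.74e-05). Tlr4 counts were 3, 3 and 0 in controls, 2, 1 and 3 with SAHA, and 70, 63 and 76 in Smarcb1-RE.

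Between Smarcb1-RE and SAHA, 37.8% of all tested genes were called higher, 36.8% lower and 74.6% either way, against which these counts are read. Of the 10 kinase genes, 3 were higher and 5 lower (5 and 3 with library totals), from Map3k14 at -0.38 to Ikbke at 0.88 (edgeR adjusted p = 6.33e-05 and 3.63e-08). Of the 12 adaptor and ligase genes, 6 were higher and 4 lower, from Tradd at -1.50 to Traf5 at 0.60 (adjusted p = 1.94e-10 and 0.00157). Of the 12 other negative regulators, 5 were higher and 6 lower, from Otulin at -0.82 to Itch at 0.79 (adjusted p = 2.15e-08 and 4.70e-08). Of the antigen receptor signaling genes, Malt1 was lower by a log2 fold change of -0.69 and Prkcq higher by 1.58 (adjusted p = 6.62e-09 and 1.02e-04). Both other IκB genes were lower, Nfkbib at -1.03 and Nfkbid at -0.87 (adjusted p = 2.03e-09 and 1.07e-07). Of the 10 tested receptor and receptor adaptor genes, 6 were higher and 3 lower (median 0.55), with Tnfrsf13c lowest at -1.22 (adjusted p = 1.15e-10). These 10 include Tlr4, Il18r1 and Cd40, which passed the low-count filter through the Smarcb1-RE group alone, so the receptor counts are descriptions.

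Of 27 target genes of NF-κB named from general knowledge, 22 passed the low-count filter. Lta, Ccl4 and Ier3 (at most 9 counts in any control) passed it through higher counts in the SAHA group. The list was also chosen with earlier results of these data known. The counts of this list are therefore descriptions and no test. With SAHA 19 of the 22 rose and 3 fell, with a median log2 fold change of 1.02, where 32.6% of all tested genes were higher and 34.3% lower. Large changes with SAHA were mostly rises in any case. Of all tested genes called at 2-fold or more, 1349 were higher and 323 lower. With Smarcb1 9 of the 22 targets rose and 9 fell (median -0.08), where 39.2% of all tested genes were higher and 38.6% lower. Library totals gave 9 and 8 (median 0.08). Between Smarcb1-RE and SAHA, 2 were higher and 18 lower (median -0.94), where 37.8% of all tested genes were higher and 36.8% lower. Library totals gave 4 and 17 there (median -0.78). The cytokine Tnf went from 40.5 ± 1.96 CPM (SD, n = 3) in controls to 94.2 ± 3.85 with SAHA and 29.7 ± 3.02 in Smarcb1-RE (log2 fold changes of 1.22 and -0.45, edgeR adjusted p = 9.62e-09 and 6.21e-05). The chemokine Cxcl10 went from 63.1 ± 0.932 CPM to 154 ± 5.77 with SAHA and 15.6 ± 0.580 in Smarcb1-RE (1.29 and -2.01, adjusted p = 5.20e-10 and 7.87e-12).

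The transcription factor Irf4 went from 412 ± 32.6 CPM in controls to 845 ± 7.59 with SAHA and 291 ± 6.31 in Smarcb1-RE (SD, n = 3; log2 fold changes 1.04 and -0.50, edgeR adjusted p = 7.04e-09 and 1.55e-06). The activation marker Cd69 rose in both, by 2.31 and 0.89 (adjusted p = 4.36e-09 and 1.22e-05), as did the IL-2 receptor chain Il2ra (1.40 and 1.74, adjusted p = 1.15e-04 and 9.58e-06), at levels of at most 2.02 CPM on average. Lta counts were 9, 3 and 3 in controls, 37, 46 and 46 with SAHA and 18, 8 and 12 in Smarcb1-RE, and those of Ccl4 were 1, 5 and 2, then 14, 11 and 11, then 1, 0 and 1. The survival gene Bcl2l1 (BCL-XL) fell in both, by 0.37 and 0.85 (adjusted p = 8.42e-06 and 2.72e-09). The lymphotoxin gene Ltb had the largest value among the called targets between Smarcb1-RE and SAHA, at 0.85 (adjusted p = 1.94e-07), having fallen by 0.18 with SAHA (adjusted p = 0.0444) and risen by 0.67 with Smarcb1 (adjusted p = 1.44e-06). The 3 genes that fell with SAHA were Bcl2l1, Xiap and Ltb.

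**Figure D5:**
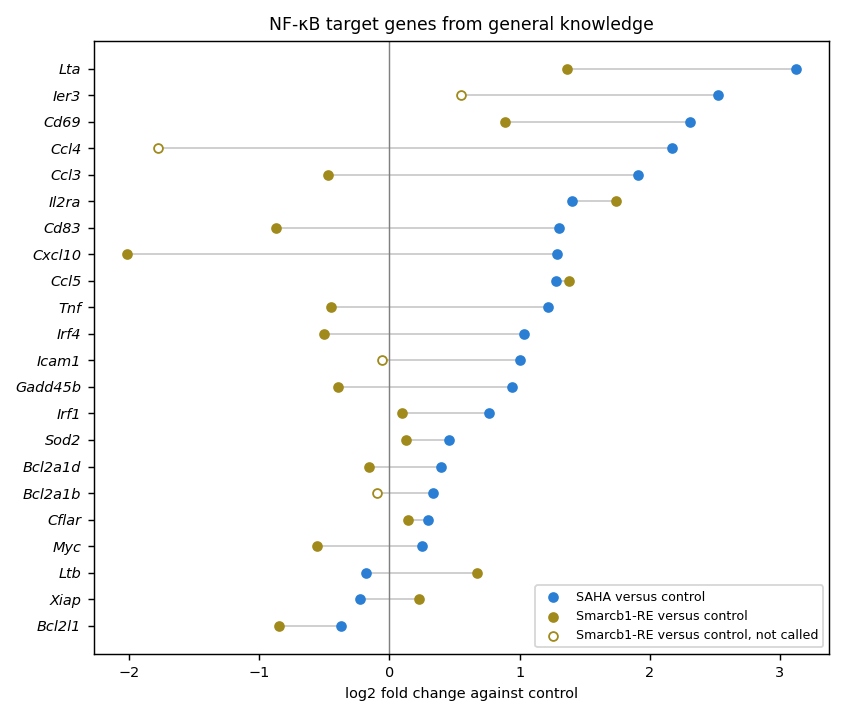
Each row is one of the 22 tested NF-κB target genes, and points give the log2 fold change against control (x axis) with SAHA (blue) and with Smarcb1 re-expression (ochre); open points did not pass the adjusted p threshold and grey lines join the values of a gene. The blue points lie right of 0 for 19 genes, while the ochre points lie on both sides.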

How the data were processed

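RNA of 9 libraries (3 groups of 3) was quantified by the authors as estimated counts per gene, which were deposited unnormalized and not whole for 52.4% of values above 0. The submitters' processing notes name Salmon 0.14.1, FastQC 0.11.8, MultiQC 1.7, DESeq2 1.22.2 and GRCm38, and the kit was directional. The annotation release and the strand setting are not given in the sources used here. Counts were rounded, genes filtered by filterByExpr (minimum count 10), TMM-scaled and fitted together with edgeR 4.0.16 (R 4.3.3) quasi-likelihood tests, with Benjamini-Hochberg adjustment over 13697 genes and a threshold of 0.05. The script was tested on simulated data. Coordinates and lengths are from GENCODE M21 (GRCm38; 99.5% of identifiers matched) and promoters from RefSeq. The consensus spelling was kept after other spellings had been looked at. The members and lists were chosen with earlier results of these data known. Named genes were all members, and, of each list, the called genes with the largest and smallest log2 fold change and up to 4 more; a few are not reported here. Alternatives included DESeq2 1.42.0, other scalings and filters, a replicate block and leaving out each library.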

Additional observations from a re-analysis of the deposited data

How the results depend on the processing

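Of 510 alternative log2 fold changes of the 10 genes, 488 kept direction and side of the threshold, as did 102 of 114 counts within 1.5 times. DESeq2 gave the same counts of members called. Where at least a 2-fold change was also required, with TMM scaling only, the counts were 0 higher and 0 lower with SAHA, 0 and 0 with Smarcb1, and 0 and 1 between the treated groups. With library totals, 6 members were higher with Smarcb1. At an adjusted p under 0.01, 1 was higher in Smarcb1-RE than SAHA. Leaving out each library gave 1 to 2 members lower with SAHA (2 without control replicate 1) and 1 to 3 higher between Smarcb1-RE and SAHA. The lower values of 1 came without SAHA replicate 1, SAHA replicate 2 or Smarcb1-RE replicate 1, and the 3 without control replicate 1. The counts of members tested higher and lower with Smarcb1 ranged from 2 to 3 and from 3 to 4.

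Changes of sign occurred in values of Smarcb1-RE against control that had not been called, and the turned value of Rela with library totals was itself a call (adjusted p = 0.0259). Nfkb1 gave -0.0034 without a low-count filter and -0.0120 to 0.0334 on leaving out each library, Rel gave -0.0072 and -0.0600 to 0.0614, Nfkb2 gave 0.0872 with library totals, and Rela gave 0.1028 with library totals and 0.0003 with at least 10 counts in every library. The cause was not tested. Where lengths came from the longest transcript, the shares in controls, SAHA and Smarcb1-RE were 67.0%, 64.7% and 66.5% for Nfkb1, 13.5%, 16.4% and 12.5% for Nfkb2, 3.69%, 4.29% and 3.67% for Rel, 13.1%, 11.7% and 12.3% for Rela, and 2.77%, 2.97% and 4.96% for Relb.

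Same-numbered libraries did not deviate together (mean r = -0.003, from -0.072 to 0.037). With 3 libraries per group this cannot show that they share nothing but a number, and the labels give no pairing. With a replicate block, 7 members were higher and 1 lower with SAHA, 3 and 3 with Smarcb1, and 2 and 7 between Smarcb1-RE and SAHA, as without it.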
